A study of Mus musculus with 2 samples.

Results

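The olfactory receptor genes of the mouse were examined as a reference for chromatin thought to be silent in facial tissue, and their expression was not analysed here. DLX2 CUT&Tag peaks were taken from 2 libraries made from maxillary process cells of wild-type C57BL/6 embryos at E12.5. The maxillary process is the facial prominence that forms the upper jaw, and DLX2 is a homeodomain transcription factor expressed in its neural crest derived mesenchyme. The libraries used an antibody against DLX2, and no control library was analysed here. The labels do not say whether replicates 1 and 2 came from separate embryos or litters, so the spread between them may be technical.

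A peak was counted as a member when it lay inside or within 20 kb of an autosomal GRCm38 RefSeq gene named Olfr. Of 1428 annotated receptor genes, 1419 were used, of which 1103 are protein coding. The remaining 8 genes on X and 1 gene at the start of a chromosome were left out. The genes and their 20 kb flanks, called the territory here, covered 28.8 Mb of the 2404 Mb of autosomal sequence and fell into 71 clusters on 18 autosomes. Replicate 1 placed 140 of its 27789 autosomal peaks in the territory and replicate 2 placed 318 of 61053. A shared region is the stretch covered by overlapping peaks of both lists, and 45 of 10812 shared autosomal regions lay in the territory. The whole lists hold 28061 and 62093 peaks, and peaks with a q-value of up to 0.1 are listed. The study describes fewer peaks than these lists hold, and how it reached its own set is not given in the sources used here, so every count and density below is that of the lists as deposited.

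Olfactory receptors are G protein-coupled receptors of the sensory neurons of the nasal epithelium. Each mature neuron expresses a single receptor allele, and the other receptor genes are packed into heterochromatin. A receptor gene usually has its whole coding sequence in a single short exon, and many copies lie in tandem on most chromosomes. Outside the olfactory system most of these genes are silent.

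The 4 receptor promoters below, defined as 250 bases before to 50 bases after an annotated start, were those overlapped by a peak. They are printed because they show how little of a receptor promoter the peaks covered. Capitals mark the bases under the peak, and the sequences are those of RefSeq on GRCm38.p6, 5′ to 3′ along the gene.
Olfr982 promoter (chr9:40074047-40074346, plus strand): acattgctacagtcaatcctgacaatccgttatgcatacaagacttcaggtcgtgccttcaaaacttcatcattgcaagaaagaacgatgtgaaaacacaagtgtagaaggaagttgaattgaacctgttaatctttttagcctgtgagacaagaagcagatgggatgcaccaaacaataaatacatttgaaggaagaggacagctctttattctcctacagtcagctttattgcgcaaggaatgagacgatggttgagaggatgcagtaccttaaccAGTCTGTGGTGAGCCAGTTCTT
Olfr222 promoter (chr11:59571689-59571988, minus strand): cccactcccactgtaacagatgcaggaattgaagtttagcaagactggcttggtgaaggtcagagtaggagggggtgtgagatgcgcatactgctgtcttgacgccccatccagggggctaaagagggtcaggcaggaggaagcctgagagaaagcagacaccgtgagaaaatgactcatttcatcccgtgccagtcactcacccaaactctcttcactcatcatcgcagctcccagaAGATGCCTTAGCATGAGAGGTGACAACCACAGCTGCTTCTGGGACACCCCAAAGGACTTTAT
Olfr1342 promoter (chr4:118690401-118690700, minus strand): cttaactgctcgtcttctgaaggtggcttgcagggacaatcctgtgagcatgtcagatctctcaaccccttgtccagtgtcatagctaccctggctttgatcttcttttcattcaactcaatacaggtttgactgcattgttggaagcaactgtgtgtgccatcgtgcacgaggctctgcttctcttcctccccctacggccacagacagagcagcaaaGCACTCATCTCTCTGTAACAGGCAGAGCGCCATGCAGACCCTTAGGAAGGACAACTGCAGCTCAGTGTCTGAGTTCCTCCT
Olfr56 promoter (chr11:49133923-49134222, plus strand): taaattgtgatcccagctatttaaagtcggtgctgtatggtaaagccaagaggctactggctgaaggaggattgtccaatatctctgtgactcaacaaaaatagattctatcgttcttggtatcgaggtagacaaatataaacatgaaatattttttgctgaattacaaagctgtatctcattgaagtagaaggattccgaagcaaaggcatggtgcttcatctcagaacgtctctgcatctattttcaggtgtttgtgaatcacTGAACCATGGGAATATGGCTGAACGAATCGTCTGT
The peak at Olfr56 was in replicate 1 and covered 35 bases, with a fold enrichment over local background of 3.6. The other 3 peaks were in replicate 2, covered 81 bases of Olfr1342, 62 bases of Olfr222 and 22 bases of Olfr982, and had folds of 4.54, 6.09 and 6.66. In all of them the covered bases were at the downstream end of the printed window. The Olfr1342 window lies wholly inside the annotated extent of its gene (chr4:118689152-118693034), so it is not at the outer start of that extent. The peaks at Olfr222 and Olfr982 were met by a replicate 1 peak further inside the gene. The annotated start may be the start codon rather than the transcription start, because 813 of 939 protein-coding receptor models under 1.5 kb (86.6%) had a length that was a multiple of 3, against 47.0% of other protein-coding genes that short.

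Of 942 receptor promoters, 1 (0.106%) was overlapped by a replicate 1 peak and 3 (0.318%) by replicate 2 peaks. Their 95% Wilson intervals were 0.0187% to 0.599% and 0.108% to 0.932%. Over all 31396 autosomal promoters the shares were 0.812% and 2.74%. Both receptor shares were therefore lower than those of promoters in general. No receptor promoter held a shared region, which allows a share of up to 0.318%. Over all 31396 autosomal promoters 53 held one, a share below that limit, so the absence of shared regions shows no difference. Intervals and limits here and below cover counting error only.

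Across the territory, peaks were less dense than across the autosomes in both replicates. Replicate 1 had 4.86 peaks per Mb in the territory (95% exact Poisson interval 4.09 to 5.73) and 11.6 per Mb over the autosomes, a ratio of 0.420. Replicate 2 had 11 per Mb (9.85 to 12.3) and 25.4 per Mb, a ratio of 0.434. The mean ratio was 0.427 ± 0.0101 (SD, n = 2), so the distance from 1 was larger than the spread between the replicates. Against the autosomes outside the territory the ratios were 0.417 (0.351 to 0.492) and 0.431 (0.385 to 0.482). With 2 replicates the exact two-sided sign-flip permutation test on the log2 ratio (mean -1.23) gave p = 0.5, the smallest it allows. Shared regions were at 1.56 per Mb (1.14 to 2.09) in the territory and 4.50 per Mb over the autosomes, a ratio of 0.347.

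The low density was most marked beside the receptor genes. Inside the gene bodies, which cover 2.43 Mb, summits were at 11.9 per Mb in replicate 1 (7.98 to 17.1) and 37.0 per Mb in replicate 2 (29.7 to 45.4). These densities were 1.03 and 1.46 times the autosomal mean. Genes under 1.5 kb had 17.5 and 58.7 per Mb, while the 179 longer receptor genes, which make up 1.30 Mb, had 6.92 (3.17 to 13.1) and 17.7 (11.2 to 26.6) per Mb, below the autosomal means but with intervals that include them. In the first 5 kb beside the genes they were 3.85 and 6.99 per Mb, from 5 to 10 kb 4.39 and 9.58 per Mb, and from 10 to 20 kb 4.73 and 10.6 per Mb. The flanks as a whole, without the gene bodies, were at 0.364 and 0.337 times the autosomal mean. Just outside the territory, from 20 to 50 kb, the densities were 7.46 and 17.9 per Mb, and from 50 to 100 kb they were 13.0 and 24.8 per Mb, close to the autosomal values. Other protein-coding genes became more frequent over the same distance: the share of sequence within 20 kb of one was 8.30% in the first 5 kb, 23.5% from 10 to 20 kb, 59.1% from 20 to 50 kb and 72.7% from 50 to 100 kb.

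**Figure D1:**
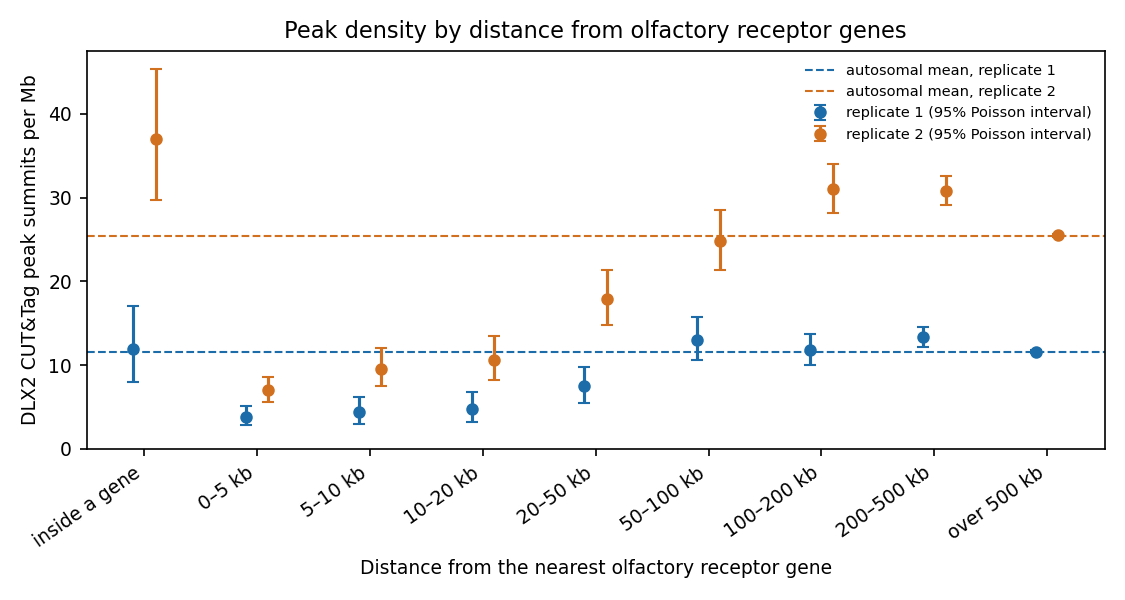
Peak summits per Mb (vertical axis) against distance from the nearest olfactory receptor gene (horizontal axis), with points for each replicate, bars for 95% exact Poisson intervals and dashed lines for the autosomal means. Both replicates were lowest in the first 5 kb beside the genes, at 3.85 and 6.99 per Mb, and were at 11.9 and 37.0 per Mb inside the genes.

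Proximity to other genes went together with the density inside the territory as well. The 3.50 Mb of territory within 20 kb of another protein-coding gene held 12.9 summits per Mb in replicate 1 and 25.1 in replicate 2, or 1.11 and 0.989 times the autosomal mean. The other 25.3 Mb held 3.75 (3.04 to 4.59) and 9.0 (7.87 to 10.3) per Mb. Autosomal sequence outside the territory and equally far from protein-coding genes held 8.30 and 17.3 per Mb, so the receptor sequence away from other genes was lower than gene-poor sequence in general, with intervals that did not overlap. The part of neighbouring genes in the density of the whole territory was not tested further.

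The low density was found mainly in the large clusters. The 19 clusters with 20 or more receptor genes hold 1190 of the genes in 22.7 Mb and had 3.79 and 7.98 peaks per Mb, or 0.328 and 0.314 times the autosomal mean. Clusters of 5 to 19 genes had 9.63 (6.88 to 13.1) and 22.6 (18.3 to 27.7) per Mb, intervals that include the autosomal mean, and clusters of 2 to 4 genes had 8.97 and 22.9. The 24 genes that stand alone had 5.09 and 20.4 per Mb, on 5 and 20 peaks. Among the large clusters, 17 of 19 were below the mean in replicate 1 and 19 of 19 in replicate 2, and the whole interval was below it for 12 and 14. Territory of the large clusters lay within 20 kb of other protein-coding genes over 8.02% of its length, against 22.0% for clusters of 5 to 19 genes.

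The largest cluster, 293 genes on chromosome 2 (85.3 to 90.4 Mb), held 8 peaks in replicate 1 and 15 in replicate 2, or 1.63 (0.706 to 3.22) and 3.07 (1.72 to 5.06) per Mb. None of them met a peak of the other replicate, which allows shares of up to 37.5% and 20%. Over all autosomal peaks the shares were 38.8% and 17.3%. The first is barely above its limit and the second is below it, so the absence of overlap shows little. The cluster of 127 genes on chromosome 9 (37.7 to 40.2 Mb) held 7 and 22 peaks, with 3 shared regions. The cluster of 116 genes on chromosome 7 (102.5 to 104.2 Mb), which surrounds the beta globin locus, held 15 and 27 peaks and 6 shared regions, at 9.09 and 16.4 per Mb. These 3 clusters therefore ranged widely, and the chromosome 2 interval lay below that of the chromosome 7 cluster in both replicates. The share of their territory within 20 kb of other protein-coding genes was 0.988%, 6.81% and 18.0% in the order given. Its part in the range was not tested.

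**Figure D2:**
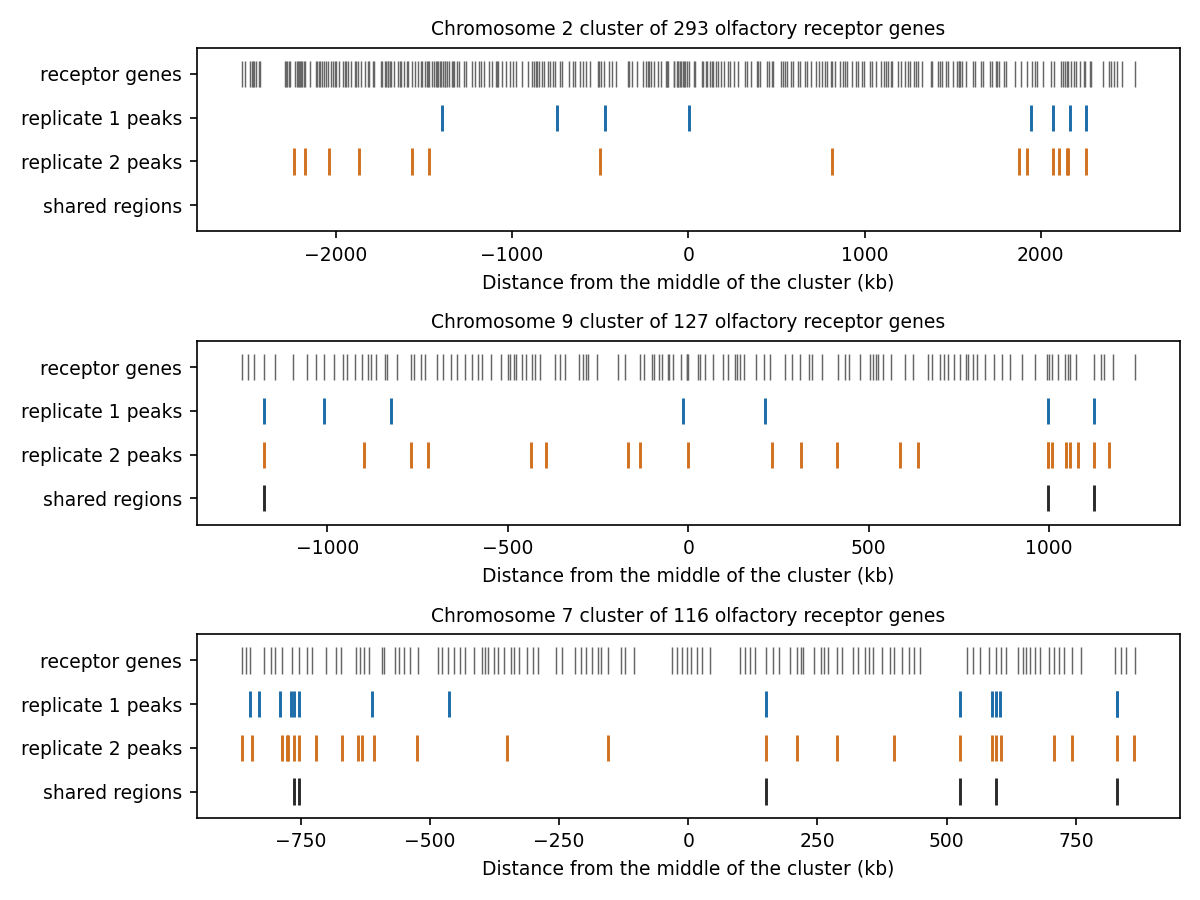
Maps of the 3 largest clusters, with each receptor gene, member peak and shared region drawn as a tick at its distance in kb from the middle of the cluster. The chromosome 2 cluster of 293 genes has 8 and 15 peaks and no shared region, and the chromosome 7 cluster of 116 genes has 15 and 27 peaks and 6 shared regions.

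The cluster on chromosome 10 (129.0 to 130.2 Mb, 69 genes) held 10 and 14 peaks and also 6 shared regions, at 8.01 and 11.2 per Mb. Among the 19 clusters with 20 or more genes, the lowest density in replicate 1 was in the cluster of 51 genes on chromosome 9 (18.7 to 20.4 Mb), which held 0 peaks (0 to 2.56 per Mb) and 3 in replicate 2. The lowest of the 19 in replicate 2 was the cluster of 47 genes on chromosome 2 (111.2 to 112.2 Mb), with 1 peak in each replicate. The highest of the 19 in replicate 1 was the cluster of 23 genes on chromosome 11 (58.4 to 58.9 Mb), at 25.8 per Mb (12.9 to 46.1) on 11 peaks, while replicate 2 had 16.4 per Mb there on 7 peaks. It was the only large cluster with more peaks in replicate 1 than in replicate 2, and 50.4% of its territory lay near other protein-coding genes. The highest of the 19 in replicate 2 was the cluster of 25 genes on chromosome 7 (140.1 to 140.7 Mb), at 23.2 per Mb, with 17.4 in replicate 1.

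**Figure D3:**
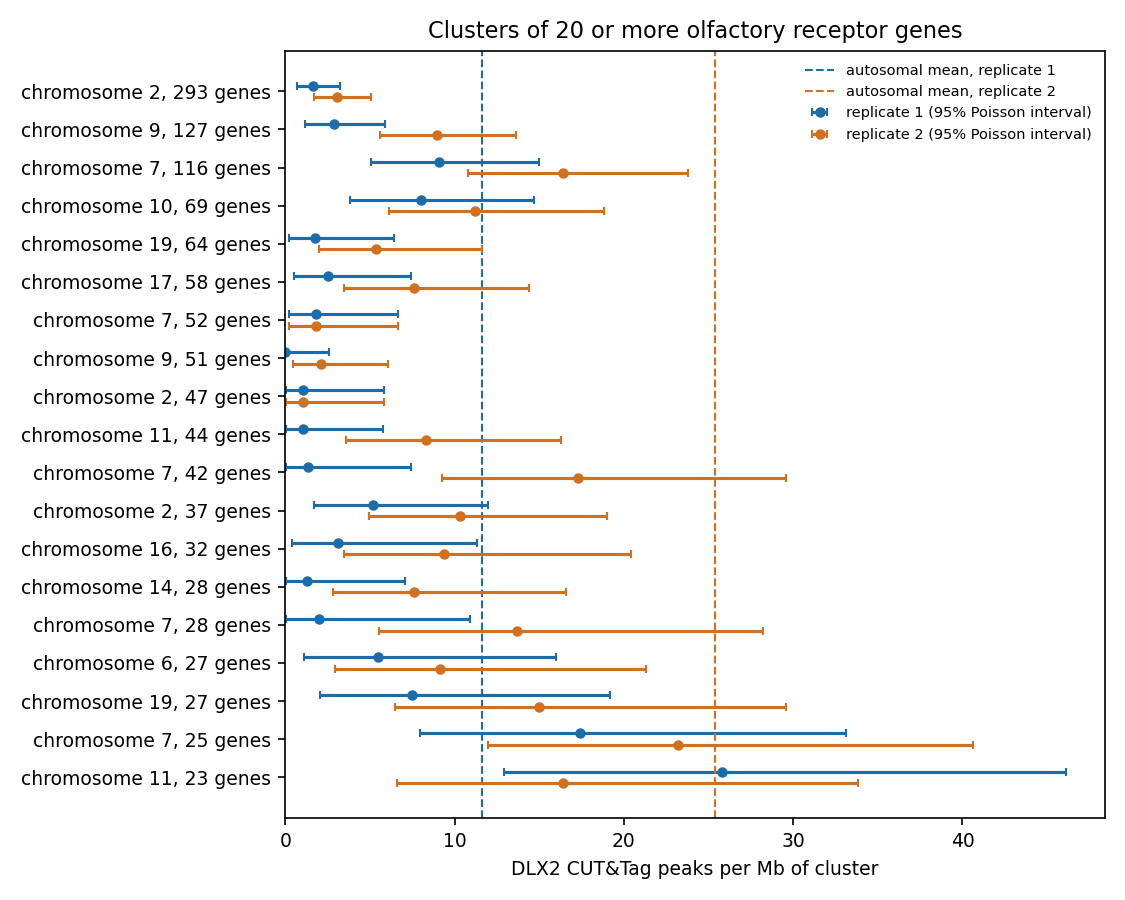
Peaks per Mb (horizontal axis) in each cluster of 20 or more receptor genes, ordered by number of genes, with 95% exact Poisson intervals and dashed lines at the autosomal means of 11.6 and 25.4 per Mb. The clusters of 25 and 23 genes at the bottom are the 2 that pass the replicate 1 mean, and none passes the replicate 2 mean.

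Over these 19 clusters the densities of the replicates had a Spearman rho of 0.698. The median GC content of a cluster's promoters had a rho of 0.672 with the density in replicate 1 and 0.782 in replicate 2, and the share of territory near other protein-coding genes had 0.393 and 0.609. The number of genes had -0.295 and -0.486. These are descriptions over clusters that share their libraries, and GC and the share near other genes were themselves related (rho 0.761). By chromosome, the territory was less dense than the rest of its own chromosome on 15 of 18 autosomes in replicate 1 and 14 in replicate 2. The exceptions were chromosomes 3, 4 and 15 in both and chromosome 5 in replicate 2, which hold 5, 30, 12 and 3 receptor genes. Some of the lower chromosomes also rest on little sequence. In replicate 1 chromosomes 5, 8 and 12, with 3, 5 and 3 receptor genes on 0.121, 0.174 and 0.0829 Mb, had 0 territory peaks. On chromosome 1 the ratios to the rest were 0.972 and 0.953, nearly equal densities.

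In their medians the peaks that were present looked much like peaks elsewhere. Their median length was 154 bp in replicate 1 and 194 bp in replicate 2, against 145 and 193 bp over the autosomes. Their median fold was 4.33 and 4.28, against 4.33 and 4.12. The number of fragments at a summit, worked out from the fold and the p-value of each peak, had a median of 5 and 8, against 6 and 9 over the autosomes. The peaks differed in their local background. It was at the lowest value the peak caller used, 0.387 fragments in replicate 1 and 1.1 in replicate 2, for 60.0% (Wilson interval 51.7 to 67.7) and 68.2% (62.9 to 73.1) of receptor peaks, against 26.0% and 31.0% of autosomal peaks. A typical receptor peak was thus a stack of 5 or 8 fragments in sequence with few others.

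The share of receptor peaks found in both replicates was somewhat lower than that of all autosomal peaks. A peak of the other replicate met 45 of 140 replicate 1 peaks, or 32.1% (25 to 40.3), where the share over all autosomal peaks was 38.8%. In replicate 2 it met 44 of 318, or 13.8% (10.5 to 18.1), where the autosomal share was 17.3%. The autosomal shares lay inside both intervals, so no difference from all autosomal peaks was detectable. Peaks outside the territory and farther than 20 kb from any protein-coding gene had shares of 43.5% and 20.3%, above both intervals. Peaks with a fold of 5 and above were met most often, at 52.9% and 38.6% (autosomal 62.0% and 46.1%), and those with a fold below 4 least often, at 17.5% and 4.76% (20.3% and 7.02%). In all 3 classes and both replicates the receptor share was the lower, with the class from 4 to under 5 at 22.4% and 9.02% (32.7% and 14.8%). At autosomal shares within each class, 39.8% and 18.6% of receptor peaks would have been met, the first inside and the second just above the interval of the measured share.

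Receptor gene bodies stood out against their own flanks. Most receptor genes have extents under 1.5 kb (1240 of 1419), and these held 20 summits in replicate 1 and 67 in replicate 2, each in a different gene. The density inside them was 17.5 per Mb (10.7 to 27.1) and 58.7 per Mb (45.5 to 74.6), against 4.29 and 6.96 per Mb in the 5 kb on either side. The ratios were 4.09 (2.30 to 7.03) and 8.43 (5.99 to 11.8). Other protein-coding genes under 1.5 kb (766) also held more summits than their flanks, with 17.9 against 8.92 per Mb in replicate 1, a ratio of 2.0 (0.991 to 3.78), and 81.1 against 20.4 in replicate 2, a ratio of 3.97 (2.83 to 5.52). The ratio for receptor genes was higher, and its interval did not overlap that of other short genes in replicate 2 but did in replicate 1. Receptor genes of 1.5 kb or more had ratios of 3.9 (0.974 to 22.4) and 2.99 (1.37 to 7.04). Vomeronasal receptor genes, the pheromone receptor families, taken at all lengths (354 genes over 3.61 Mb), had ratios of 2.62 (0.629 to 15.3) and 0.578 (0.237 to 1.34), with intervals that include 1.

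Within the short receptor genes the summits gathered near the middle. When each gene was divided into 3 equal parts, the middle part held 13 of 20 summits in replicate 1, or 65.0% (43.3 to 81.9), and 47 of 67 in replicate 2, or 70.1% (58.3 to 79.8). In other short protein-coding genes it held 5 of 13 (38.5%) and 20 of 59 (33.9%, 23.1 to 46.6). For the 797 short receptor genes with a known strand, 14 summits in replicate 1 lay at a median of 496 bp from the gene start, and 49 in replicate 2 at a median of 472 bp (quartiles 415 and 575). When the genes were divided into 10 equal bins from start to end, bin 5 alone held 4 and 19 of them. The 2 replicates thus placed their summits at similar positions along the gene. A summit of each replicate was found in 9 of these genes. Of the peaks, 8 of 20 (40%, 21.9 to 61.3) and 8 of 67 (11.9%, 6.18 to 21.8) were met by the other replicate, shares whose intervals include the autosomal 38.8% and 17.3%. Receptor genes are close copies of each other, and how the authors treated fragments that match several copies is not given in the sources used here, so the gene to which such a fragment was assigned is uncertain.

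**Figure D4:**
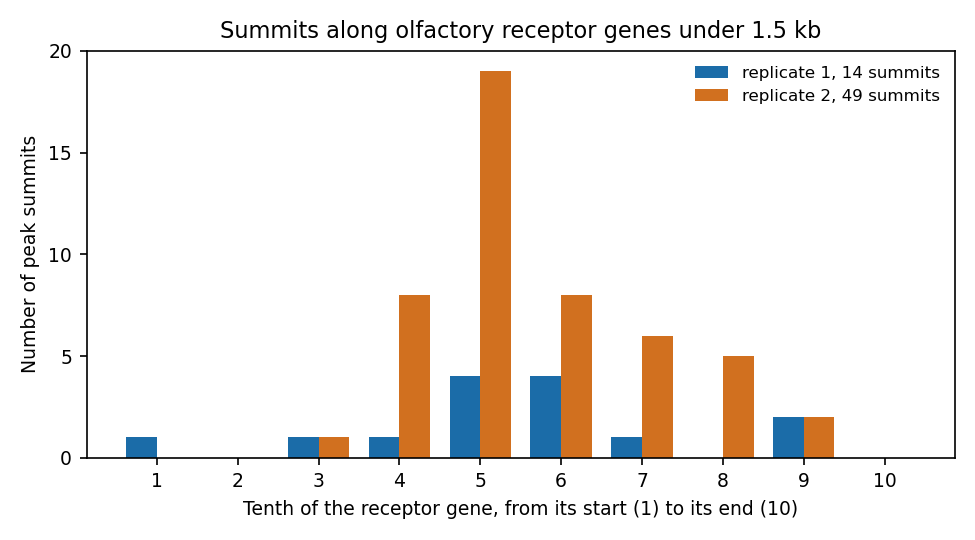
Number of peak summits (vertical axis) in each of 10 equal bins of the gene from start to end (horizontal axis), over the 797 olfactory receptor genes under 1.5 kb with a known strand. Replicate 2 has 19 of its 49 summits in bin 5, and replicate 1 has 4 of its 14 in bin 5 and 4 in bin 6.

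In replicate 1 the peaks in short gene bodies had somewhat higher folds than the other territory peaks, and in replicate 2 they did not. Their median fold was 4.94 in replicate 1 and 4.28 in replicate 2, against 4.33 and 4.28 for the other territory peaks, and their median length was 198 and 201 bp, against 150 and 193 bp. They were spread over 8 chromosomes in replicate 1 and 14 in replicate 2. A fold of 5 or more was reached by 10 of 20 and 15 of 67, against 41 of 120 and 55 of 251 of the other territory peaks, and a −log10 q of 5 or more by 0 and 4.

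In all, 9 receptor genes themselves held a shared region: Olfr222, Olfr94, Olfr352, Olfr550, Olfr551, Olfr609, Olfr632, Olfr982 and the pseudogene Olfr542-ps1. In either list, 105 receptor genes held a peak. Per replicate this was 1.90% and 6.41% of receptor genes, against 32.1% and 50.7% of all autosomal protein-coding genes. The genes were not matched for length, and the share of all genes holding a shared region was not computed. Olfr632 had folds of 5.77 and 6.33 in replicates 1 and 2, Olfr550 had 5.77 and 5.66, Olfr609 had 5.77 and 5.24, and Olfr982 had 5.05 and 6.66. Olfr352 was the weakest, at 3.6 and 3.33. Of the 9, 5 lie on chromosome 7, among them the neighbours Olfr550 and Olfr551, whose shared regions are at chr7:102579029-102579280 and chr7:102588203-102588360.

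Promoter sequences of 7 of these 9 genes were at hand and were searched on both strands for 4 motifs: TAATTA, the core bound by homeodomain proteins, CACGTG, the E-box, AACCACA, the RUNX site, and CCCNNGGG, the site of EBF factors. The 3 below are printed because Olfr352 and Olfr609 hold the homeodomain core and Olfr550 holds 1 of the leading shared regions. Capitals mark the motifs, and the shared regions lie in the genes and not in these windows. The Olfr550 window itself lies inside the annotated extent of its gene (chr7:102571431-102579662), upstream of the shared region.
Olfr352 promoter (chr2:36869318-36869617, plus strand): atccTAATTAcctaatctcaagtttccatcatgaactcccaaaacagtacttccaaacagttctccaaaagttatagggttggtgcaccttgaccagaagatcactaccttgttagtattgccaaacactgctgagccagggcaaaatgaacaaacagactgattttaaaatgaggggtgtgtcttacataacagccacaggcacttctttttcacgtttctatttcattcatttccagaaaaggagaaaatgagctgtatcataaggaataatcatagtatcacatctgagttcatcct
Olfr609 promoter (chr7:103492827-103493126, minus strand): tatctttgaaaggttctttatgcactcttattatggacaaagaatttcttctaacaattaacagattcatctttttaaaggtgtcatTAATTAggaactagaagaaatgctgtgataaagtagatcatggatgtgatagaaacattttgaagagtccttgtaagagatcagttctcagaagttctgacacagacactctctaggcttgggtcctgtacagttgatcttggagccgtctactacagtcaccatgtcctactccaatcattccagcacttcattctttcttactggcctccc
Olfr550 promoter (chr7:102578219-102578518, plus strand): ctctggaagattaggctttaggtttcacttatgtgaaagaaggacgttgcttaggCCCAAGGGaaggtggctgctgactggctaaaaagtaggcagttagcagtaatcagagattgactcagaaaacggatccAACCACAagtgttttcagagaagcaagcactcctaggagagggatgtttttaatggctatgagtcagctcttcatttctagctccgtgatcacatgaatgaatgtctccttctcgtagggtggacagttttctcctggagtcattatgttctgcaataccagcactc
TAATTA was found in Olfr352 and Olfr609, AACCACA and CCCNNGGG in Olfr550 and AACCACA in Olfr222, and no motif in Olfr94, Olfr551 and Olfr982. Over all 942 receptor promoters, 18.7% held TAATTA, against 5.27% of all promoters, and 9.02% held AACCACA, against 5.32%. CACGTG was in 2.12%, against 7.14%, and CCCNNGGG in 3.08%, against 13.9%. Receptor promoters had a median GC content of 35%, against 53.0% for all promoters. The promoters that peaks covered held TAATTA in no case, and a match is a description of letters, not a bound site.

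The strongest shared region was chr10:129008943-129009642, 1.65 kb from Olfr763, with folds of 11.3 and 8.06 on 18 and 20 fragments. It was the only receptor region with a fold above 8 in both replicates. In the same cluster, chr10:128996614-128997109, 5.76 kb from Olfr9, had folds of 6.02 and 8.37, and chr10:129094807-129095018, 0.835 kb from Olfr768, had 6.49 and 5.71. Of the 10 leading regions, 3 thus lay in the single chromosome 10 cluster, within 100 kb of each other and over 30 kb from the nearest other protein-coding gene, Mettl7b.

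The second region, chr7:103867121-103867284, had folds of 6.49 and 9.04 on 8 and 18 fragments. It lay 14.0 kb from Olfr66 and 13.9 kb from Hbb-y, the embryonic beta globin gene, on the side of the globin cluster that carries its locus control region. Hbb-y had 1 and 2 peaks within 20 kb, Hbb-bh1, Hbb-bh2, Hbb-bh3 and Hbb-bs had 0 and 2 each, and Hbb-bt had 0 and 1. The windows of these genes overlap, so a peak can be counted for several of them. The other leading regions on chromosome 7 were those in Olfr632, Olfr550 and Olfr542-ps1 (chr7:140721894-140722027, folds of 5.37 and 5.33).

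The remaining 3 were nearer to other genes than to a receptor. The region chr19:12001094-12001249 (folds of 6.49 and 5.71) was 0.987 kb from the transfer RNA gene n-TFgaa6 and 18.9 kb from Olfr1421-ps1. The region chr3:52256787-52256882 (5.28 and 5.53) was 0.291 kb from Gm30125 and 11.5 kb from Foxo1, a forkhead transcription factor, and 19 kb from Olfr1398-ps1. The region chr16:58750362-58750611 (5.77 and 5.71) was 0.867 kb from Gm26019 and 9.54 kb from Olfr172. Over all 45 shared regions the median length was 164 bp, against 151 bp over the autosomes, and 40% had a fold of 5 or more in both replicates, against 35.1%.

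Per gene, 213 of 1419 receptor genes (15.0%, 13.2 to 17.0) had a replicate 1 peak in or within 20 kb and 426 (30.0%, 27.7 to 32.5) a replicate 2 peak, where the shares of all autosomal protein-coding genes were 58.7% and 79.3%. Both lists had a peak at 148 genes, replicate 1 alone at 65, replicate 2 alone at 278 and neither at 928. The peaks of the lists at a gene need not overlap, and this split was not computed for other genes. To set aside gene length, peaks within 20 kb of the middle of the gene were counted: 14.4% and 29.2% of receptor genes had such a peak, against 42.7% and 67.2% of all autosomal protein-coding genes. Protein-coding receptors had a peak in or within 20 kb more often than receptor pseudogenes, with 15.9% (13.8 to 18.1) against 12.0% (8.89 to 16.1) in replicate 1 and 32.5% (29.8 to 35.3) against 21.5% (17.3 to 26.4) in replicate 2. The intervals overlapped in replicate 1 only. They treat genes as independent although neighbouring genes can count the same peak, so they may be too narrow to establish a difference.

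The contrast with other genes was smaller among genes of like promoter GC content. Of 711 receptor genes with a promoter GC below 40%, 10.1% (8.12 to 12.6) and 23.3% (20.4 to 26.6) had a peak within 20 kb of the middle, against 18.2% (15.4 to 21.5) and 29.8% (26.3 to 33.5) of other protein-coding genes in that class. From 40% to under 45% the shares were 30.4% and 55.1%, against 27.3% and 47.5%, and from 45% to under 50% they were 42.9% and 61.9%, against 36.1% and 58.9%. At 50% and above, 13 and 23 of 26 receptor genes had one, or 50% and 88.5%, against 49.0% and 75.8%. In the class below 40% the receptor shares were the lower, with intervals that did not overlap in replicate 1 and did in replicate 2. Neighbouring genes can count the same peak, so these intervals may be too narrow. In the 3 classes above, the receptor intervals included the share of other genes in both replicates. Vomeronasal receptor genes below 40% had 5.30% and 12.1%, less than the olfactory receptor genes of that class.

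**Figure D5:**
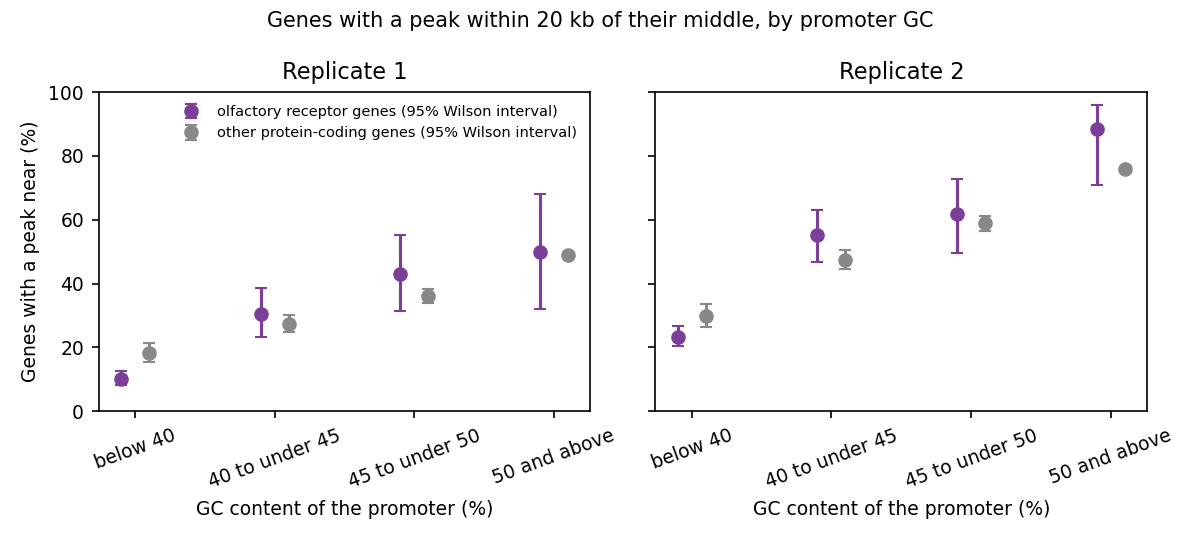
Share of genes with a peak within 20 kb of their middle (vertical axis, percent) by GC content of the 300 bp promoter (horizontal axis), for olfactory receptor genes and other protein-coding genes, with 95% Wilson intervals and a panel for each replicate. In both groups the share climbs with GC, from 10.1% to 50% of receptor genes in replicate 1 and from 23.3% to 88.5% in replicate 2.

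Vomeronasal receptor genes give a comparison with another chemoreceptor group of sensory neurons. Their 15.2 Mb of territory held 22 and 54 peaks, or 1.45 (0.909 to 2.2) and 3.56 (2.68 to 4.65) per Mb, and 8 shared regions. Olfactory receptor territory was 3.35 times (2.13 to 5.51) as dense in replicate 1 and 3.10 times (2.32 to 4.21) in replicate 2, so the 2 receptor families differed by more than counting error. Away from other protein-coding genes the vomeronasal territory was at 0.105 and 0.132 times the autosomal mean.

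Genes that olfactory neurons use to read or express a receptor were counted for contrast. The 17 genes, among them Omp, Adcy3 and Cnga4 of mature neurons, Rtp1 and Rtp2, which carry receptors to the cell surface, and the regulators Lhx2, Ldb1, Ebf1 to Ebf4, Emx2 and Kdm1a, held 40 and 90 peaks in or within 20 kb. Their density was 17.9 and 40.2 per Mb, against 14.3 and 32.2 per Mb over all autosomal sequence within 20 kb of other protein-coding genes. No interval was computed for the densities or gene shares of this short list, so no enrichment can be read from them. A peak was found at 13 and 17 of the 17, where 58.7% and 79.3% of all autosomal protein-coding genes had one. A shared region was found at 10 of the 17, and the share over all protein-coding genes was not computed. The windows ran from 41.9 kb at Gng13 to 430 kb at Ebf1, and wider windows collect more peaks. Rtp1 had 4 peaks in each replicate with 2 shared regions, Kdm1a, a histone demethylase, had 3 and 5 with 3 shared, Ebf3 had 4 and 13 with 2 shared, and Omp had 1 and 2 with 1 shared. The 4 genes with 0 peaks in replicate 1 were Adcy3, Gnal, Gng13 and Cnga4, which had 7, 3, 2 and 1 in replicate 2. The list mixes genes of mature neurons with regulators that other tissues also express.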

How the data were processed

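DLX2 CUT&Tag peaks of the 2 wild-type libraries were analysed as deposited, 1 list per library. Per the submitters' processing notes the authors trimmed reads with Trim Galore 0.4.5, mapped them with Bowtie 1.1.2 and called peaks with MACS2 2.2.7 on mm10, while the study's methods name another Trim Galore version, Bowtie 2 as the aligner and no peak caller. The labels describe sonication and ligation and the methods a transposase kit. Each deposited list gives positions, a display score, the fold enrichment at the summit over local background from the authors' peak caller, and the −log10 p and −log10 q values of that caller. The score column was not used. Read depth is not in the lists, and the number of peaks (28061 and 62093) limits the precision.

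Peaks, RefSeq genes and promoter sequences were compared on GRCm38 with Python 3.11.15, pandas 2.3.3 and scipy 1.17.1. An overlap of 1 bp counted. The first 3 Mb of each autosome were left out, and an autosome ended at its last gene or peak. Receptor genes closer than 200 kb after adding 20 kb flanks formed a cluster. Gene bodies and other partial classes were counted by summit, the territory, the clusters and the alternative flanks, with that of 0 kb, by overlap. Poisson, conditional binomial and Wilson intervals are at 95%. Limits on a share with a count of 0 are 3 divided by the number examined. Fragments at a summit were solved from fold and p, and all came out whole (tolerance 0.001). The calculations were tested on simulated lists. No test across genes was made.

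The members, lists and motifs were chosen with earlier results of these data known. Regions named are the 10 shared regions with the highest lower fold, the receptor genes holding a shared region, the clusters of 20 or more genes that are largest, lowest or highest, nearby genes of other families, the beta globin genes and 17 olfactory neuron genes. Alternatives changed the q or fold minimum, the flank, the overlap, the reference sequence and the chromosomes or replicates used.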

Additional observations from a re-analysis of the deposited data

How the results depend on the processing

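Territory was less dense than the autosomes in each replicate used under 19 of 22 settings of the density ratio (main 0.427, mean of 2 replicates). The exceptions were gene bodies alone (1.28, counted by overlap) and, counted by summit, gene bodies under 1.5 kb (1.91) and territory within 20 kb of other protein-coding genes (1.05). The other moved ratios were 0.269 at a −log10 q of 5 or more, 0.478 at a fold of 5 or more, 0.459 and 0.578 with flanks of 5 and 100 kb, 0.341 and 0.612 against sequence within and beyond 20 kb of protein-coding genes, and 0.511, 0.401 and 0.467 without chromosome 2, 7 and 9. Settings chosen after seeing the data were the short and the other-gene territory above, both sides beyond 20 kb of other protein-coding genes (0.487), flanks alone (0.350), clusters of 20 or more genes (0.321) and of fewer (0.820), and the promoter GC classes. Without 1 replicate the ratio was 0.420 or 0.434. The mean number of peaks (229) became 17, 60.5, 62, 130 and 463 at the q minimum, the fold minimum and flanks of 0, 5 and 100 kb, and 140 to 318 without 1 replicate. Shared regions (45) became 2, 18, 9, 27 and 98 in that order. The ratio to vomeronasal territory (3.22) became 2.70, 3.83, 9.72 and 2.13 at the q minimum, the fold minimum and flanks of 0 and 100 kb. The share of peaks met (23%) moved by more than the spread between replicates (SD 12.9) only for folds of 5 and above (45.8%). The peaks met were 45 of 140 and 44 of 318, so that spread reflects list length and does not show a stable share. In both replicates the share fell when 50% of each peak had to overlap (mean 15.4%) or summits had to lie within 150 bp (18.5%). It rose in both at the fold minimum (30.5%). The share of genes with a peak (22.5%) became 2.15% and 7.19% at the minima and 48.5% for a promoter GC of 40% or more. What drives these shifts was not tested. The planned comparison in windows of like GC was not run, as no genome sequence was used here. No paired analysis was possible because there was 1 group. With 2 libraries the exact sign-flip test cannot go below p = 0.5, and a receptor peak rests on few fragments, so single peaks found in 1 list are uncertain.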

Other observations

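Along the 938 receptor genes with a promoter sequence, and so a strand, summits were less dense before the start than after it in replicate 2. The 10 kb upstream held 7.75 per Mb (6.05 to 9.8) and the 10 kb downstream, which includes the gene body, 13.7 (11.4 to 16.4). In replicate 1 the values were 4.32 (3.07 to 5.91) and 6.23 (4.7 to 8.11), with intervals that overlapped.

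The 8 olfactory receptor genes on X, which the autosomal comparison left out, had 1 peak in or within 20 kb in replicate 1 and 3 in replicate 2. Their territory covered 0.310 Mb, and the lists hold 222 and 931 peaks on X. The density of X as a whole was not computed, so these counts show neither a low nor a high density.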
